A study of Homo sapiens with 6 samples.

Results

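The 41 genes described here encode the machinery that brings proteins into the endoplasmic reticulum (ER), folds them there and removes those that fail to fold. They were taken by name from a curated list, and all 41 were found among the 21533 genes of each deposited table. By role they fall into 16 folding genes (chaperones, their partners and disulfide or proline isomerases), 9 translocon genes (the channel and its associated complexes) and 16 degradation genes (the path called ER-associated degradation, ERAD). RNA was sequenced in LX-2 cells, a human line derived from stellate cells of the liver, in 3 PERK siRNA samples and 3 control siRNA samples. PERK, encoded by EIF2AK3, is an ER stress sensor. The cells of both groups received palmitic acid after transfection, and RNA was collected 24 h later, so every difference below is one of siRNA in fatty acid-treated cells of 1 line. Whether replicates were grown as separate cultures is not stated in the labels, so the p-values reflect the spread among these 6 samples alone, which may be a technical one. The labels give neither the number of siRNA sequences nor the dose of palmitic acid.

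Most secreted and membrane proteins enter the ER through the SEC61 channel while they are being made. Inside, the chaperone BiP and its J-domain partners hold the chain and isomerases set its disulfide bonds. Chains that do not fold are recognised by lectins, drawn back through a membrane ubiquitin ligase complex and pulled into the cytosol for the proteasome. When unfolded protein accumulates, the sensors PERK, IRE1 and ATF6 respond. PERK slows translation by phosphorylating eIF2α, and ATF6 and the IRE1 product XBP1 raise transcription of many of the genes described here. Stellate cells are a secretory cell type, known for the collagen they lay down in a scarring liver.

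The PERK siRNA samples held 17937141 to 19535253 total exon reads and the control samples 18560051 to 19585872. The targeted EIF2AK3 stood at 4.37, 4.96 and 5.52 CPM (counts per library total, scaled by TMM factors) with PERK siRNA, against 12.9, 13.0 and 13.9 CPM with control siRNA. That is 37.3% of the control level (log2 fold change -1.42, SE 0.10, adjusted p = 3.0e-13). Of 10 stellate cell markers 8 were high enough to be tested, and the whole list summed to 6683 to 6751 CPM in PERK siRNA samples and 5929 to 6166 CPM in control samples. Most of that sum was VIM and COL1A1, while DES and LRAT were near 0. At an adjusted p under 0.05, 5 of the 8 were higher and 1 lower with PERK siRNA (62.5% and 12.5%). ACTA2 had a mean of 29.4 CPM with PERK siRNA and 7.62 CPM with control siRNA, and COL1A2 27.1 and 11.8 CPM. The marker that fell was PDGFRB, at 38.8 CPM with PERK siRNA and 43.7 CPM with control siRNA. Of the other liver cell types' markers, ALB, APOA1, TTR, CYP3A4, CD163, MARCO, CLEC4F, CD5L, LYVE1 and CLEC4G had no read. The hepatocyte list summed to 3.43 to 4.37 CPM in PERK siRNA samples and 3.75 to 4.97 CPM in control samples, all of it SERPINA1. The Kupffer cell list summed to 64.4 to 67.0 CPM in PERK siRNA samples and 66.9 to 69.4 CPM in control samples, all of it CD68. The summed endothelial list stood at 0.617 to 0.833 CPM in PERK siRNA samples and 9.05 to 9.27 CPM in control samples, nearly all of it PECAM1. The cholangiocyte list, mostly SOX9, summed to 86.2 to 97.7 CPM with PERK siRNA and 129.7 to 138.9 CPM with control siRNA. The leukocyte list summed to 0.520 to 0.673 CPM with PERK siRNA and 0.107 to 0.414 CPM with control siRNA. Nearly all of it was PTPRC, on 2 to 11 reads a sample, while CD3E and NKG7 had no read. None of its 4 genes was high enough to be tested. The part of these marker lists in the results was not tested. Across 12973 genes tested with edgeR's quasi-likelihood test, 69.5% differed at an adjusted p (Benjamini and Hochberg over those genes) under 0.05, with 35.0% lower and 34.4% higher with PERK siRNA. In bulk RNA, fewer cells that express a gene and less of its RNA per cell cannot be told apart.

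The ER machinery genes were mostly lower with PERK siRNA, by modest amounts. All 41 passed the filter on low counts, and the scarcest, ERO1B, had at least 37 reads in every sample. With PERK siRNA 28 of the 41 fell and 6 rose at an adjusted p under 0.05, or 68.3% and 14.6% of them, beside the 35.0% and 34.4% of all genes. The median log2 fold change (PERK siRNA over control siRNA, in all that follows) was -0.22 over the 41 and 0.0038 over all genes tested. In 29 of the genes every PERK siRNA sample lay below every control sample and in 7 every one lay above; among all genes 71.8% were apart in this way, 36.0% lower and 35.8% higher. The sizes were small. Against a null of a 1.2-fold change 14 fell and 1 rose, where 18.1% of all genes passed in each direction. Of the 41 only ERLEC1 was past 2-fold, as 3.84% of all genes were in that direction and 4.07% in the other.

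**Figure D1:**
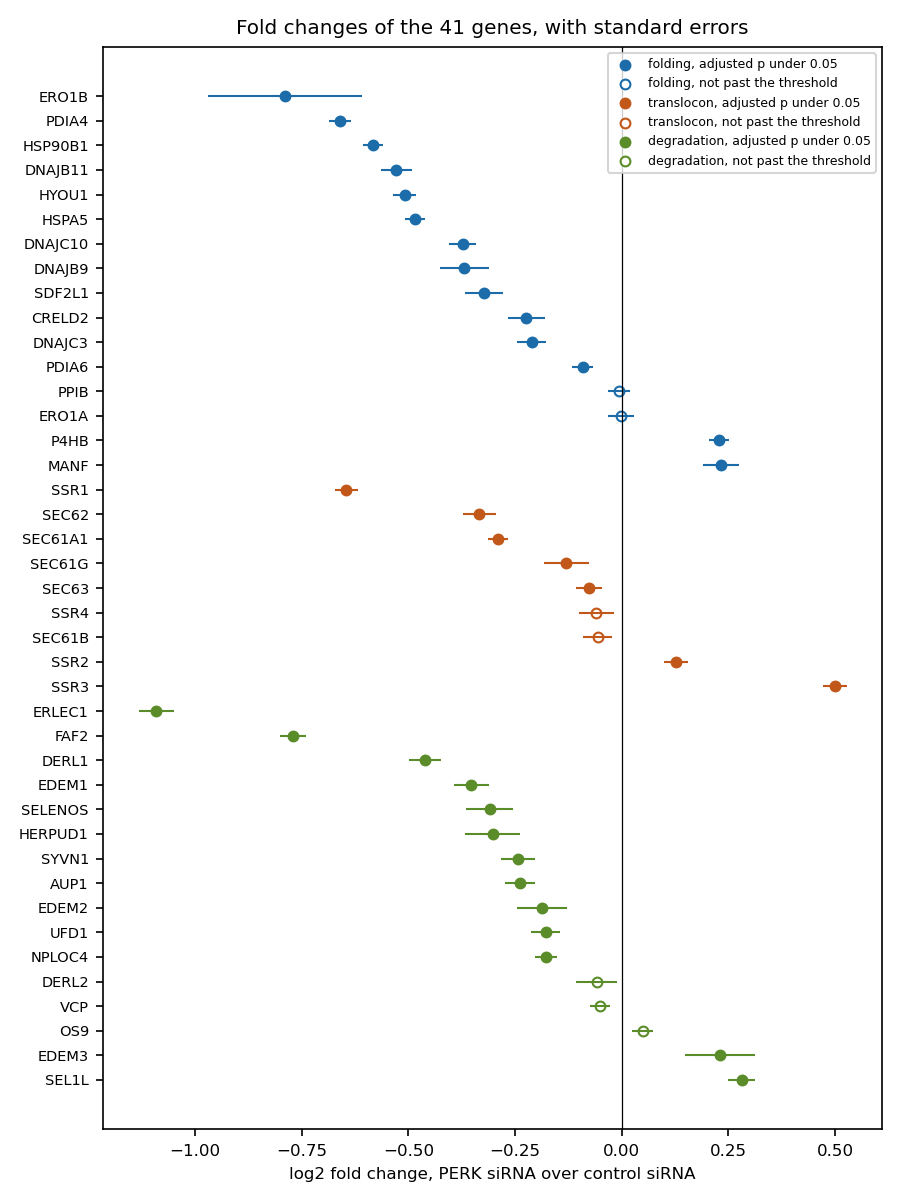
Log2 fold change of each of the 41 genes, PERK siRNA over control siRNA, with its standard error (horizontal bars); 3 samples a group, colours mark the class, and open points did not pass an adjusted p of 0.05. Folding genes run from ERO1B at -0.79 to MANF at 0.23, translocon genes from SSR1 at -0.64 to SSR3 at 0.50, and degradation genes from ERLEC1 at -1.09 to SEL1L at 0.28.

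The 3 general chaperones all fell, where 35.0% of all genes did. HSPA5, which encodes BiP, the Hsp70 of the ER (ENSG00000044574; chromosome 9, 125234853 to 125241330, minus strand, GRCh38), stood at 649, 640.1 and 654 CPM with PERK siRNA, against 907, 900.1 and 912 CPM with control siRNA. The groups were far apart for their spread. Their means were 648 ± 7.06 CPM with PERK siRNA and 906 ± 6.04 CPM with control siRNA (SD, n = 3 each), a log2 fold change -0.48 (SE 0.02, adjusted p = 1.5e-17). HSP90B1, the Hsp90 of the ER, had 684, 671 and 680.4 CPM in PERK siRNA samples and 995, 1041 and 1011 CPM in control samples (log2 fold change -0.58, SE 0.02, adjusted p = 5.0e-19). HYOU1, a large Hsp70-like protein that exchanges nucleotide on BiP, had 144, 144 and 146 CPM with PERK siRNA, against 204, 206 and 207 CPM with control siRNA (log2 fold change -0.51, SE 0.03, adjusted p = 2.4e-16). The 3 chaperones thus kept 66.8% to 71.5% of their control level, and no PERK siRNA sample reached a control sample in any of them.

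Of the 7 partners of these chaperones, 6 fell and 1 rose (85.7% and 14.3%, beside 35.0% and 34.4% of all genes). DNAJB11, a soluble J-domain protein that hands unfolded chains to BiP, fell most: 53.0, 52.3 and 52.8 CPM with PERK siRNA, against 76.1, 76.5 and 75.2 CPM with control siRNA (log2 fold change -0.53, SE 0.04, adjusted p = 1.7e-13). Only 69.6% of the DNAJB11 reads had a unique position and protein-coding neighbours share 14.5% of the exon bases, so its level is uncertain. With reads at a unique position alone, the fall again passed the threshold. SDF2L1, which works together with DNAJB11, had 37.4, 36.4 and 37.8 CPM in PERK siRNA samples and 46.2, 45.6 and 47.7 CPM in control samples (log2 fold change -0.32, SE 0.04, adjusted p = 2.5e-07). DNAJC10, a J-domain protein that reduces disulfides in proteins bound for degradation, had 88.4, 87.1 and 85.8 CPM with PERK siRNA and 113, 111 and 114 CPM with control siRNA (log2 fold change -0.37, SE 0.03, adjusted p = 1.7e-11). DNAJB9, a J-domain protein that restrains IRE1 and assists ERAD, stood at 23.5, 22.1 and 21.5 CPM with PERK siRNA, against 28.0, 30.3 and 28.3 CPM with control siRNA (log2 fold change -0.37, SE 0.06, adjusted p = 1.9e-06). In each of these 4 every PERK siRNA sample lay below every control sample. CRELD2, an ER protein induced by stress, and DNAJC3, a J-domain co-chaperone, fell less, with log2 fold changes of -0.22 (SE 0.04, adjusted p = 4.3e-05) and -0.21 (SE 0.03, adjusted p = 4.3e-06). MANF, a stress-induced protein that binds BiP and can be secreted, went the other way: 58.5, 57.8 and 60.4 CPM with PERK siRNA, against 49.3, 48.1 and 52.9 CPM with control siRNA (log2 fold change 0.23, SE 0.04, adjusted p = 1.8e-05). All 3 PERK siRNA samples of MANF lay above its control samples. Its TPM (reads per exon length, scaled to a common total) relative to that of HSPA5 was 0.344 ± 0.0049 in PERK siRNA samples and 0.209 ± 0.0091 in control samples (SD, n = 3 each).

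Of the 6 isomerases and oxidases 3 fell and 1 rose (50% and 16.7%, beside 35.0% and 34.4% of all genes). The other 2 did not pass. PDIA4, a protein disulfide isomerase (ENSG00000155660; chromosome 7, 149003062 to 149028641, minus strand), stood at 208, 205 and 209 CPM with PERK siRNA, against 331, 328 and 322 CPM with control siRNA (log2 fold change -0.66, SE 0.03, adjusted p = 1.1e-19). P4HB, the most familiar protein disulfide isomerase and the β subunit of the collagen prolyl hydroxylase, was higher: 1399, 1335 and 1352 CPM in PERK siRNA samples, against 1183, 1153 and 1151 CPM in control samples (log2 fold change 0.23, SE 0.02, adjusted p = 9.9e-10). The groups did not overlap in either gene, and they moved in opposite directions. The TPM of PDIA4 relative to that of P4HB was 0.303 ± 0.0064 with PERK siRNA and 0.561 ± 0.0060 with control siRNA (SD, n = 3 each). PDIA6, another isomerase, fell slightly (log2 fold change -0.092, SE 0.02, adjusted p = 0.0014), with 70.6% of reads at a unique position and 25.2% of exon bases shared with ATP6V1C2, read from the other strand. PPIB, cyclophilin B, which turns prolines in collagen chains, had the highest TPM of the 41. It stood at 381, 360.4 and 372 CPM with PERK siRNA, against 373, 375 and 370.4 CPM with control siRNA, with overlapping groups (log2 fold change -0.0065, SE 0.03, adjusted p = 0.83). Only 43.2% of the PPIB reads had a unique position and SNX22, read from the other strand, shares 27.2% of the exon bases, so its level is uncertain. The sign of its small difference turned with upper-quartile scaling (0.0089) and without PERK siRNA sample 2 (0.015).

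The 2 oxidases that recharge disulfide isomerases differed in level and in outcome. ERO1A had 146, 143 and 145 CPM in PERK siRNA samples and 144, 153 and 139 CPM in control samples (log2 fold change -0.0018, SE 0.03, adjusted p = 0.96), with overlapping groups. ERO1B, a much scarcer paralogue, had 2.52, 1.89 and 2.08 CPM with PERK siRNA, against 3.76, 4.24 and 3.21 CPM with control siRNA (log2 fold change -0.79, SE 0.18, adjusted p = 0.00032). Those CPM rest on 37 to 45 reads a sample with PERK siRNA and 62 to 79 with control siRNA. ERO1B had the largest spread between replicates among the 41, a coefficient of variation of 14.9% with PERK siRNA and 13.8% in controls. The sign of the ERO1A difference turned with upper-quartile scaling (0.014) and without PERK siRNA sample 2 (0.0057) or control sample 2 (0.035). It passed the threshold under no alternative (adjusted p 0.327 to 0.986).

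Promoter sequence was read for 39 of the 41 genes from RefSeq (GRCh38.p14), in windows of 250 bases before to 50 after each annotated start; DERL1 and UFD1 were not matched. Several of these genes are textbook examples of promoters with an ER stress response element, so 4 motifs were searched on both strands. The ER stress response element, ERSE, was searched as CCAAT and CCACG with any 9 bases between them, and its short form ERSE-II as ATTGG and CCACG with any 1 base between them; both are known to bind ATF6 with the CCAAT-binding factor NF-Y. The XBP1 element, UPRE, was searched as TGACGTGG, and the core of the ATF4 element, CARE, as TGATGNAA. The 39 genes have 46 windows, since some have more than 1 start. ERSE lay in 5 of the 46 windows (10.9%), each of another gene, where 0.0769% of all 35116 windows held it. ERSE-II lay in 3 (6.52%), where 0.0541% of all windows held it. The 60 bases around each of these matches are shown because they carry the element for which this gene family is known. They are written 5′ to 3′ on the gene's own strand with the fixed bases of the motif in capitals. Each line gives whether the motif reads in the sense or antisense direction, the place of the 60 bases on GRCh38.p14, and the first and last base of the match. These are counted from the annotated start, which is base 0.
ERO1B ERSE, antisense, chr1:236282149-236282208 (minus strand), -243 to -225: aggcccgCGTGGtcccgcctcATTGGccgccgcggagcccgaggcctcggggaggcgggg
PDIA6 ERSE, sense, chr2:10812833-10812892 (minus strand), -86 to -68: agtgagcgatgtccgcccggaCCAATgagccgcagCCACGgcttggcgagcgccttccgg
HSPA5 ERSE, sense, chr9:125241371-125241430 (minus strand), -66 to -48: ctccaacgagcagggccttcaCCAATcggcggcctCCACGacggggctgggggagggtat
HSP90B1 ERSE, sense, chr12:103930195-103930254 (plus strand), -194 to -176: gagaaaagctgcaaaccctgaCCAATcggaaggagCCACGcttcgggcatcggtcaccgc
HSP90B1 ERSE, antisense, chr12:103930300-103930359 (plus strand), -89 to -71: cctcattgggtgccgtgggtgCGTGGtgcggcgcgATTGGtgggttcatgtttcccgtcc
CRELD2 ERSE, antisense, chr22:49918533-49918592 (plus strand), -80 to -62: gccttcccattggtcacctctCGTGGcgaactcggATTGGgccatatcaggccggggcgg
HYOU1 ERSE-II, antisense, chr11:119057356-119057415 (minus strand), -185 to -175: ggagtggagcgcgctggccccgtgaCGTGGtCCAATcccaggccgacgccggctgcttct
HYOU1 ERSE-II, antisense, chr11:119057250-119057309 (minus strand), -79 to -69: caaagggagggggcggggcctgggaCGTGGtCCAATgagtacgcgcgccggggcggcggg
HERPUD1 ERSE-II, sense, chr16:56932000-56932059 (plus strand), -117 to -107: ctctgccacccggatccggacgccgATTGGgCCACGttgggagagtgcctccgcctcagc
SDF2L1 ERSE-II, antisense, chr22:21642089-21642148 (plus strand), -188 to -178: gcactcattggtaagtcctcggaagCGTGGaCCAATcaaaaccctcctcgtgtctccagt
The whole window of HSPA5 is given as the widely used example, with the same capitals. Only exact matches are in capitals, and near matches of the element were not searched.
HSPA5 window, chr9:125241294-125241593 (minus strand): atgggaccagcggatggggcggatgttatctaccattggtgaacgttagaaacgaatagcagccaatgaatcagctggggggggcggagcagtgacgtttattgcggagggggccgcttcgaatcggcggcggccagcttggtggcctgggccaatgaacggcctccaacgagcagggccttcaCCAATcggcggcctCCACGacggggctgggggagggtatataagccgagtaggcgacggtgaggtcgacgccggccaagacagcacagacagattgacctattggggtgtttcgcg

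All 8 genes with an ERSE or ERSE-II match fell with PERK siRNA, with a median log2 fold change of -0.40. They are HSPA5, HSP90B1, HYOU1, SDF2L1, CRELD2, PDIA6, ERO1B and HERPUD1, and 7 of them are folding genes. Of the 31 genes with a window and neither element, 18 fell, 6 rose and 7 did not pass (median -0.18). Both elements also occur outside this machinery. Of 21 other tested genes with a match, 6 fell and 7 rose (median -0.035). That stands beside 3709 falls and 3639 rises among 10453 tested genes with a window. No test was made of these differences, and a match of letters is not a bound site. Only exact matches inside the windows were counted, so genes with a variant or more distant element stand among the 31 with neither. UPRE lay in 6 of the 46 windows (13%, beside 0.729% of all windows), those of 6 genes: DNAJC10, SEC62 and HYOU1, which fell, SSR3, which rose, and VCP and SSR4, which did not pass. The HYOU1 UPRE overlaps its distal ERSE-II. CARE lay in 1 window, that of HERPUD1 (2.17%, beside 3.62% of all windows).

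**Figure D2:**
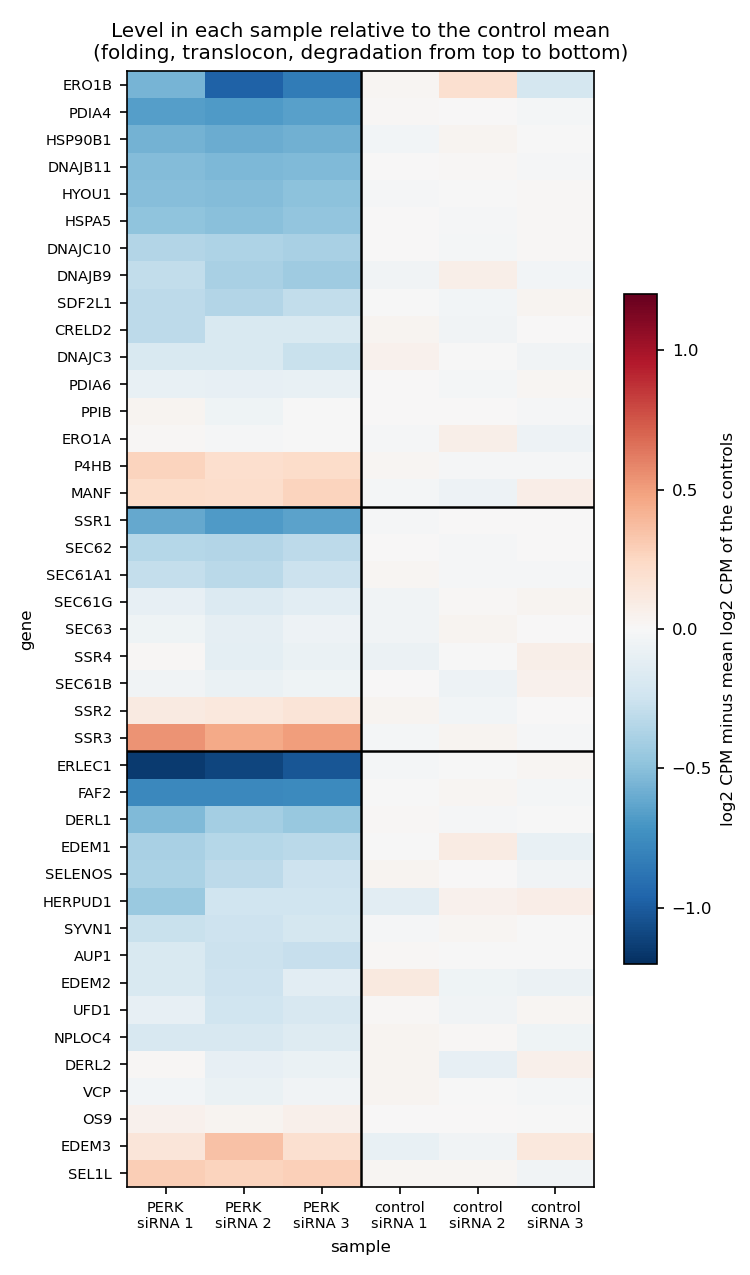
Level of each of the 41 genes (rows) in each sample (columns, 3 PERK siRNA samples and 3 control siRNA samples), as log2 CPM minus the mean log2 CPM of the controls; blue is lower and red higher. The 3 PERK siRNA columns resemble one another, with ERLEC1, ERO1B, FAF2, PDIA4 and SSR1 darkest blue and SSR3 darkest red.

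Of the 9 translocon genes 5 fell and 2 rose (55.6% and 22.2%, beside 35.0% and 34.4% of all genes), and 2 did not pass. Subunits of the same complex differed. SEC61A1, which encodes the pore of the channel (ENSG00000058262; chromosome 3, 128051641 to 128071683, plus strand), stood at 677, 658 and 688 CPM with PERK siRNA, against 839.8, 817 and 818 CPM with control siRNA, with no overlap (log2 fold change -0.29, SE 0.02, adjusted p = 7.4e-12). SEC61B, a small channel subunit and the translocon gene with the highest TPM, had 90.6, 88.5 and 90.3 CPM in PERK siRNA samples and 93.5, 89.7 and 96.8 CPM in control samples (log2 fold change -0.057, SE 0.03, adjusted p = 0.14). Its groups overlapped, and it passed only without control sample 2 (adjusted p = 0.0408, and 0.0408 to 0.45 over the alternatives). The TPM of SEC61A1 relative to that of SEC61B was 0.776 ± 0.010 with PERK siRNA and 0.913 ± 0.036 with control siRNA (SD, n = 3 each). SEC61G, the other small subunit, fell by a little (log2 fold change -0.13, SE 0.05, adjusted p = 0.032). That call was lost without PERK siRNA sample 2 (adjusted p = 0.103), PERK siRNA sample 3 (0.0607), control sample 2 (0.0751) or control sample 3 (0.0931), with upper-quartile scaling (0.0579) and with DESeq2 (0.151), over a range of 0.0206 to 0.151. SEC62 and SEC63 help the channel take up chains after their synthesis. SEC62 had 51.3, 50.9 and 52.4 CPM with PERK siRNA, against 65.1, 64.4 and 65.3 CPM with control siRNA, with no overlap (log2 fold change -0.33, SE 0.04, adjusted p = 6.9e-09). SEC63 fell less (log2 fold change -0.076, SE 0.03, adjusted p = 0.027), a call lost without PERK siRNA sample 2 (adjusted p = 0.134), control sample 2 (0.10) or control sample 3 (0.0547), with upper-quartile scaling (0.0725) and with DESeq2 (0.0984), over a range of 0.0116 to 0.134.

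The translocon-associated protein complex, TRAP, held both the translocon gene that fell most and the one that rose most. Its 4 subunits, encoded by SSR1 to SSR4, sit beside the channel and help some signal sequences to open it. Of these 4 genes 1 fell and 2 rose (25% and 50%, beside 35.0% and 34.4% of all genes). SSR1, the α subunit (ENSG00000124783; chromosome 6, 7268306 to 7347446, minus strand), had 135, 129 and 133 CPM in PERK siRNA samples, against 205, 208 and 208 CPM in control samples (log2 fold change -0.64, SE 0.03, adjusted p = 1.9e-18). SSR3, the γ subunit (ENSG00000114850; chromosome 3, 156540140 to 156555184, minus strand), had 241, 227 and 235 CPM with PERK siRNA, against 163, 169 and 165 CPM with control siRNA (log2 fold change 0.50, SE 0.03, adjusted p = 1.3e-15). Neither gene's groups overlapped. SSR2, the β subunit, rose as well (log2 fold change 0.13, SE 0.03, adjusted p = 0.00019), while SSR4, the δ subunit, did not pass (log2 fold change -0.06, SE 0.04, adjusted p = 0.2). The TPM of SSR1 relative to that of SSR2 was 0.129 ± 0.0039 in PERK siRNA samples and 0.220 ± 0.0066 in control samples, and that of SSR3 relative to SSR2 was 0.558 ± 0.021 in PERK siRNA samples and 0.432 ± 0.019 in control samples (SD, n = 3 each). For such ratios 3 samples against 3 cannot give an exact permutation p under 0.10, so they are given without a test.

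**Figure D3:**
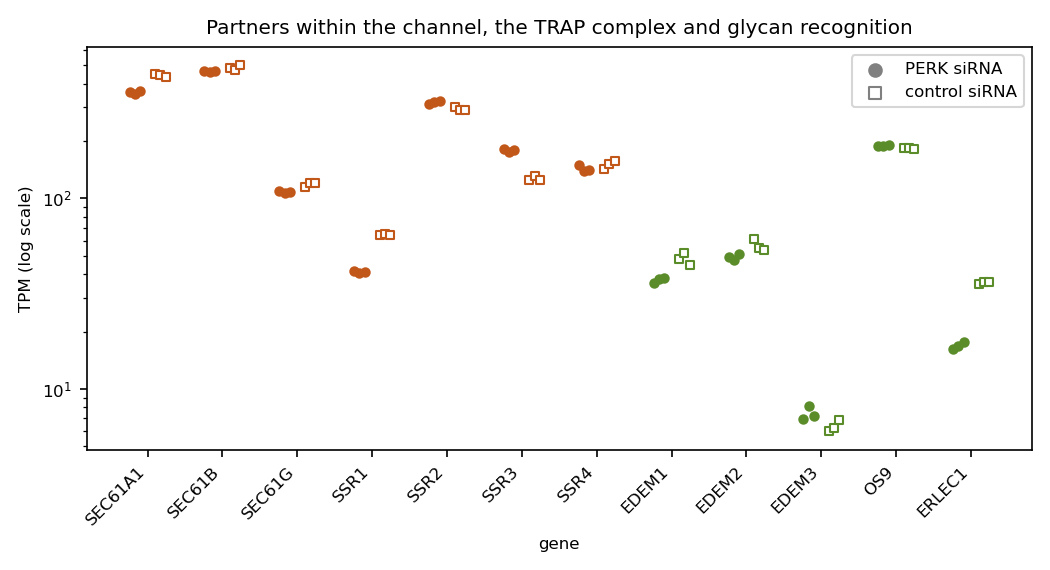
TPM (log scale) of the SEC61 subunits, the TRAP subunits SSR1 to SSR4 and the genes that recognise misfolded glycoproteins, with 1 point per sample, filled circles for PERK siRNA and open squares for control siRNA. SSR1 lies lower and SSR3 higher with PERK siRNA, and ERLEC1 lies below its controls while OS9 has a mean of 188 TPM with PERK siRNA and 183 TPM with control siRNA.

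Of the 5 genes that recognise misfolded glycoproteins 3 fell and 1 rose (60% and 20%, beside 35.0% and 34.4% of all genes). ERLEC1 among them had the largest fold change of all 41. ERLEC1, a lectin that brings trimmed glycoproteins to the ligase complex (ENSG00000068912; chromosome 2, 53787044 to 53818819, plus strand), stood at 34.9, 36.0 and 37.9 CPM with PERK siRNA, against 76.1, 77.2 and 78.6 CPM with control siRNA. Every PERK siRNA sample lay at about the same low level, 46.9% of the control mean (log2 fold change -1.09, SE 0.04, adjusted p = 9.6e-20). OS9, the other lectin with this role, had 260.4, 257 and 262 CPM in PERK siRNA samples and 252, 251 and 249.8 CPM in control samples. All 3 PERK siRNA samples lay slightly above the controls. The difference did not pass (log2 fold change 0.049, SE 0.02, adjusted p = 0.078) except with upper-quartile scaling (0.0198, over a range of 0.0198 to 0.345). The TPM of OS9 relative to that of ERLEC1 was 11.2 ± 0.43 with PERK siRNA and 5.06 ± 0.11 with control siRNA (SD, n = 3 each). The EDEM proteins, which resemble mannosidases, mark glycoproteins for removal. EDEM1 had 68.1, 70.7 and 71.4 CPM with PERK siRNA, against 89.4, 95.5 and 83.8 CPM with control siRNA, again without overlap (log2 fold change -0.35, SE 0.04, adjusted p = 2.1e-08). EDEM2 fell less (log2 fold change -0.19, SE 0.06, adjusted p = 0.0054), a call lost without control sample 1 (adjusted p = 0.0707, over a range of 0.0012 to 0.0707). EDEM3, the scarcest of the 3, rose (log2 fold change 0.23, SE 0.08, adjusted p = 0.014), but not past the threshold without PERK siRNA sample 2 (adjusted p = 0.108) or control sample 1 (0.0746) or with DESeq2 (0.0734), over a range of 0.0053 to 0.108.

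In the membrane ligase complex 5 of 7 genes fell and 1 rose (71.4% and 14.3%, beside 35.0% and 34.4% of all genes). The core pair differed in direction. SYVN1, the ubiquitin ligase HRD1, fell (log2 fold change -0.24, SE 0.04, adjusted p = 2.9e-06), and SEL1L, the adaptor that holds it, rose (log2 fold change 0.28, SE 0.03, adjusted p = 7.0e-09). The TPM of SEL1L relative to that of SYVN1 was 0.850 ± 0.018 in PERK siRNA samples and 0.590 ± 0.017 in control samples (SD, n = 3 each). DERL1, one of the rhomboid-like proteins through which chains leave the ER, had 58.3, 63.7 and 61.6 CPM with PERK siRNA, against 85.4, 83.7 and 83.8 CPM with control siRNA (log2 fold change -0.46, SE 0.04, adjusted p = 5.7e-12). The DERL1 groups lay apart, whereas those of its relative DERL2 overlapped and did not pass (log2 fold change -0.059, SE 0.05, adjusted p = 0.27). HERPUD1, a stress-induced scaffold of the complex, had 21.0, 24.2 and 24.2 CPM in PERK siRNA samples and 26.1, 29.5 and 30.1 CPM in control samples (log2 fold change -0.30, SE 0.06, adjusted p = 0.00017). The PERK siRNA samples of HERPUD1 lay below the controls, although both groups were spread more widely than most genes here. SELENOS, a selenoprotein that draws the extraction ATPase to the membrane, had 22.6, 23.6 and 24.8 CPM with PERK siRNA, against 30.1, 29.5 and 28.6 CPM with control siRNA, without overlap (log2 fold change -0.31, SE 0.06, adjusted p = 1.5e-05). AUP1, which recruits the ubiquitin-conjugating enzyme UBE2G2 and also sits on lipid droplets, fell (log2 fold change -0.24, SE 0.04, adjusted p = 7.6e-07), with 18.3% of exon bases shared with HTRA2, read from the other strand.

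Of the 4 genes of the extraction step 3 fell (75%, beside 35.0% of all genes), and the ATPase itself did not pass. FAF2, a membrane protein that recruits the ATPase to the ER and to lipid droplets (ENSG00000113194; chromosome 5, 176447628 to 176510074, plus strand), stood at 82.6, 82.6 and 83.3 CPM with PERK siRNA, against 141, 143 and 139 CPM with control siRNA. The PERK siRNA samples agreed within 1 CPM of one another, and the means of 82.8 ± 0.367 CPM with PERK siRNA and 141 ± 2.04 CPM with control siRNA (SD, n = 3 each) gave a log2 fold change -0.77 (SE 0.03, adjusted p = 2.9e-19). VCP, the ATPase itself and the degradation gene with the highest TPM, had 540.3, 524 and 538 CPM in PERK siRNA samples and 565, 550.5 and 544 CPM in control samples (log2 fold change -0.051, SE 0.02, adjusted p = 0.062). All 3 PERK siRNA samples of VCP lay below its control samples. VCP passed without control sample 2 (adjusted p = 0.0484) or control sample 3 (0.0238), with no scaling factors (0.0197) and with no filter (0.0298), over a range of 0.0197 to 0.241. A share of 88.4% of its reads had a unique position. UFD1 and NPLOC4 form the cofactor by which VCP grips ubiquitinated chains. UFD1 had 111, 101 and 104 CPM with PERK siRNA, against 120.4, 115 and 121 CPM with control siRNA (log2 fold change -0.18, SE 0.03, adjusted p = 3.9e-05), and NPLOC4 fell by a like amount (log2 fold change -0.18, SE 0.03, adjusted p = 5.4e-07). The TPM of UFD1 relative to that of NPLOC4 was 1.34 ± 0.070 in PERK siRNA samples and 1.34 ± 0.066 in control samples (SD, n = 3 each).

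Set side by side, the folding genes had the lowest median and the translocon genes the highest. Of 16 folding genes 12 fell and 2 rose (75% and 12.5%), and their median log2 fold change was -0.35. Of 16 degradation genes 11 fell and 2 rose (68.8% and 12.5%, median -0.21). Of 9 translocon genes 5 fell and 2 rose (55.6% and 22.2%, median -0.076). Among all genes tested 35.0% fell and 34.4% rose. Against a 1.2-fold change 8 of 16 folding, 4 of 16 degradation and 2 of 9 translocon genes fell. The only rise was SSR3. There, 18.1% of all genes passed in each direction. The 2 rises in the folding class were P4HB and MANF, those in the degradation class SEL1L and EDEM3, and those in the translocon class SSR2 and SSR3. The difference between classes was not tested, since the genes were chosen with results known. Counting DNAJB9 and DNAJC10 as degradation genes and SEC63 as a folding gene turned the order of the folding and degradation classes. The medians were then -0.22, -0.24 and -0.095 for folding, degradation and translocon genes. In the longer lists given below the order was reversed, with medians of 0.0013 for folding, -0.098 for degradation and -0.15 for translocation genes.

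Summed TPM was lower with PERK siRNA in each class, least so in the translocon. The 16 folding genes together held 4290.4, 4219 and 4265 TPM in PERK siRNA samples, against 4905, 4953 and 4865 TPM in control samples, 86.8% of the control mean. The degradation genes held 1370.1, 1359 and 1371 TPM with PERK siRNA, against 1582, 1575 and 1541 TPM with control siRNA, or 87.3% of the control mean. The translocon genes held 1714, 1685 and 1718 TPM with PERK siRNA, against 1781, 1772 and 1793 TPM with control siRNA, or 95.7% of the control mean. In none of the 3 classes did the groups overlap. Few genes carried most of the sum. HSP90B1, HSPA5 and PDIA4 gave 20.7%, 19.9% and 11.9% of the summed differences of genes with a lower mean (-1156 TPM). The genes with a higher mean, the 6 that rose and OS9, differed by 230.8 TPM in sum, of which P4HB gave 110.4.

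**Figure D4:**
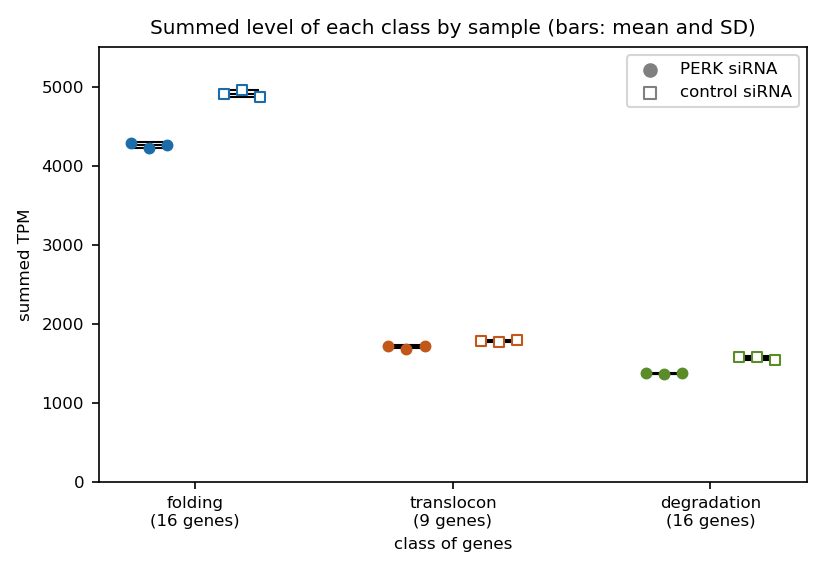
Summed TPM of the folding, translocon and degradation genes in each sample, with filled circles for PERK siRNA, open squares for control siRNA, and black bars for the mean and SD of 3 samples. The folding sums lie between 4219 and 4290.4 TPM with PERK siRNA and between 4865 and 4953 TPM with control siRNA, and the translocon sums lie closest together.

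The order of the most abundant genes differed between the groups. In PERK siRNA samples it ran PPIB (1141 ± 24.6 TPM), P4HB (773 ± 14.6), HSPA5 (568 ± 3.67), HSP90B1 (474 ± 1.55) and SEC61B (464 ± 2.89). In control samples it ran PPIB (1151 ± 16.7 TPM), HSPA5 (799 ± 1.29), HSP90B1 (713 ± 21.0), P4HB (662 ± 11.2) and SEC61B (485 ± 14.5; SD, n = 3 each). P4HB thus stood above both HSPA5 and HSP90B1 with PERK siRNA and below them with control siRNA, in every sample. The scarcest were ERO1B, at 1.48 ± 0.212 TPM with PERK siRNA and 2.57 ± 0.374 TPM with control siRNA, and EDEM3, at 7.44 ± 0.609 TPM with PERK siRNA and 6.37 ± 0.457 TPM with control siRNA.

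Other genes of the same 3 steps were read from longer lists, drawn up with earlier results of these data known. The shares of all genes beside which their counts stand are again 35.0% lower and 34.4% higher. Of 45 further genes of targeting, translocation and membrane insertion 26 fell and 7 rose (57.8% and 15.6%). The median was -0.15 (log2). With unique exon reads 23 fell and 7 rose. Among the falls, EMC6, GET4 and NOMO1 had only 8.34%, 9.93% and 23.3% of reads at a unique position. The smallest adjusted p-values there were those of SEC61A2, a paralogue of the pore (log2 fold change -1.31), STT3B, a catalytic subunit of the glycosylation complex (-0.36), and TMCO1, an ER membrane protein found with the translocon, which rose (0.56). Of 40 further degradation genes 19 fell and 6 rose (47.5% and 15%, median -0.098). UBE2G2, the conjugating enzyme that AUP1 recruits, had 16.5, 18.2 and 19.2 CPM with PERK siRNA, against 53.3, 54.7 and 53.0 CPM with control siRNA (log2 fold change -1.57, SE 0.05, adjusted p = 7.0e-21), and the ligase gene MARCHF6 (-0.87) fell too. SEL1L3 (-1.37), also on this list, fell as well, but whether it acts in degradation was not examined here. Of 34 further folding genes tested, out of 36 listed, 15 fell and 14 rose (44.1% and 41.2%, median 0.0013), with falls and rises nearly equal in number, as among all genes. GPX8, a peroxidase of the ER, rose (0.77), as did TXNDC12, a thioredoxin-like protein (0.77, with 14.5% of reads at a unique position), and HSPA13, an Hsp70-like protein, fell (-0.49). Among the stress sensors and their transcription factors, ATF6 (log2 fold change 0.02, SE 0.04, adjusted p = 0.63), ERN1, which encodes IRE1 (log2 fold change 0.036, SE 0.07, adjusted p = 0.67), and XBP1 (log2 fold change -0.044, SE 0.04, adjusted p = 0.33) did not pass. Reads per gene give RNA levels only, and the activity of these proteins was not measured. ATF6B rose (0.44), and MBTPS2, a protease that releases ATF6 from the membrane, fell (-0.75). DDIT3, a target of ATF4, fell (-0.50) and ATF4 rose (0.38). With the siRNA's own target EIF2AK3 counted, 3 of the 9 fell and 2 rose (33.3% and 22.2%), no more than the shares of all genes.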

How the data were processed

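Total RNA from 6 samples of LX-2 cells was sequenced from libraries made with a directional kit, per the labels' protocols. The only build named is hg38, per the submitters' processing notes. Aligner, counter and strand setting go unnamed (not given in the sources used here). Each deposited table holds raw read counts per gene (total exon reads and, apart, unique exon reads), per the file headers. It also holds the authors' TPM, which matched a recalculation from reads and exon length to a relative 7.1e-08 and entered no test. Gene model properties (exon length, number of exons) were deposited beside them, per the file headers.

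The groups came from the sample titles. Total exon reads were tested with edgeR 4.0.16 (quasi-likelihood, robust, TMM factors, default expression filter, no covariate; R 4.3.3) over 12973 of the 16842 genes with a read, adjusted by Benjamini and Hochberg at 0.05. Standard errors were derived from the fold change and its F statistic. A count of 3 reads corresponded to 0.153 to 0.167 CPM. Replicates differed by more than sampling noise (chi-square per degree of freedom 1.64 to 2.30 within groups), so none was taken for a copy. On data simulated from these samples the test recovered 29, 40, 47 and 49 of 50 genes changed 1.2, 1.5, 2 and 3-fold, and called 31 of 12773 unchanged genes. The simulation changed a far smaller share of genes than the 69.5% called in the data, so these rates need not hold for them.

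Gene positions and exon overlaps came from GENCODE 29 (GRCh38) and promoters from RefSeq; motifs were searched in Python 3.11.15. Alternatives were other scaling factors and filters, DESeq2 1.42.0, limma-voom (limma 3.58.1), non-robust dispersion, unique exon reads, the replicate number as a block, stricter thresholds, and leaving out each sample.

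The 41 genes, the further lists, the motifs, the TPM ratios and the tests were chosen with earlier results of these data known. The rule for values by sample took 26 of the 41: those past the threshold with a log2 fold change of at least 0.3 in size, the 2 of each class with the highest TPM, and the 1 of each class closest to 0 among those that did not pass. MANF was given by sample besides, chosen after its values were seen. From each further list the 3 smallest adjusted p-values are named, with the stress sensors added after their values were seen.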

Additional observations from a re-analysis of the deposited data

How the results depend on the processing

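Of 34 calls among the 41 genes, all 34 kept their direction and side of the threshold with median-ratio factors, no factors, no filter, a 1 CPM filter, limma-voom, non-robust dispersion and unique exon reads. With the replicate number as a block the counts were again 28 falls and 6 rises. Whether equal numbers mark a shared culture or day is not stated in the labels. Deviations of same-numbered samples correlated at 0.0077, -0.022 and -0.018, a check over all genes that would miss a small shared effect. SEC63, SEC61G and EDEM3 lost their calls with DESeq2 and at an adjusted p of 0.01, and SEC63 and SEC61G with upper-quartile factors. These settings left 3 falling translocon genes, and DESeq2 and the 0.01 threshold 1 rising degradation gene. Leaving out 1 sample at a time gave 26 to 28 falls and 5 to 6 rises, 12 and 2 for folding, 3 to 5 and 2 for translocon, and 10 to 12 and 1 to 2 for degradation genes, beside 4334 to 4427 falls and 4198 to 4294 rises over all genes. Against a 1.2-fold change 2344 genes fell and 2345 rose. There, 14 and 1 of the 41, 0 rises in folding, 2 and 1 in translocon and 4 and 0 in degradation genes passed, with 9 and 3 of the further degradation, 7 and 7 of the further folding and 7 and 3 of the further translocation genes. The sign of ERO1A turned with upper-quartile factors (0.014) and without PERK siRNA sample 2 (0.0057) or control sample 2 (0.035), and that of PPIB with upper-quartile factors (0.0089) and without PERK siRNA sample 2 (0.015); neither passed in any of these, and over all left-out samples ERO1A ran from -0.036 to 0.035 and PPIB from -0.026 to 0.015. The causes were not tested. The lowest count behind a call was 37 reads in a sample, for ERO1B.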
